A study of Mus musculus with 17 samples.

Results

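The 10 genes described are those of the main steps of MHC class I antigen presentation: the heavy chains *H2-K1* and *H2-D1*, their light chain *B2m*, the peptide loading genes *Tap1*, *Tap2* and *Tapbp*, the immunoproteasome subunits *Psmb8*, *Psmb9* and *Psmb10*, and the transcriptional regulator *Nlrc5*. They were taken by symbol from the Ensembl identifiers of a table of 31053 genes, and all 10 passed the filter of at least 10 counts in at least 3 libraries that left 14030 genes for testing. The values are counts from bulk MARS-seq, which reads the 3′ ends of poly-A transcripts, in 17 libraries of cardiac fibroblasts (CFs) collected at 1 to 6 days post-infarction (dpi), in groups of 3 libraries (1, 2, 4 and 6 dpi), 4 libraries (3 dpi) and 1 library (5 dpi).

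All libraries came from infarcted hearts of C57BL/6 mice of genotype Collagen1a1-GFP+, 8 to 10 weeks old, after permanent ligation of the left anterior descending coronary artery. CFs were sorted as Col1a1-GFP+/CD31-/CD45- cells, so that each sample holds the cells in which the *Col1a1* promoter drove GFP and that lacked the endothelial protein CD31 and the leukocyte protein CD45. No uninfarcted heart is among these libraries, and every comparison below is between days after infarction. The methods call the bulk samples of a population biological replicates and describe cells from individual mice at 3 and 5 dpi, while the labels do not tie a library to a mouse, so that the p-values measure the spread between these samples.

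MHC class I molecules display peptides from proteins made inside the cell to CD8 T cells. The proteasome cuts the proteins, the TAP transporter moves the peptides into the endoplasmic reticulum, and tapasin holds the empty class I molecule at TAP until a peptide is bound. Interferon gamma raises the whole set in most cell types, in part by exchanging the catalytic subunits of the proteasome for the immunoproteasome subunits and through NLRC5, which acts at class I promoters. Fibroblasts carry class I on their surface without being professional antigen-presenting cells.

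Total counts ran from 8021815 to 22029938 per library, with a median of 14123952, and 3 counts, taken as the floor of detection, correspond to 0.136 to 0.374 CPM, the count scaled to library size, an allowance that covers counting error only. The summed level of 7 fibroblast markers was 12092 to 38581 CPM, and 13 leukocyte markers summed to 9.37 to 311 CPM, with *Cd3e* at 0 in every library and *Ptprc*, which encodes CD45, at 0 to 37 counts. The leukocyte sum was 43.1 to 311 CPM at 3 dpi and 99.7 at 5 dpi, against 9.37 to 41.0 at 1 and 2 dpi and 25.9 to 48.3 at 4 and 6 dpi. The sum of 7 cardiomyocyte markers was 8.57 to 12.8 CPM at 3 dpi, 35.2 to 62.9 at 4 dpi and 70.6 to 148 at 6 dpi. Counts of Y-linked genes exceeded those of *Xist* in 10 libraries, namely 1 dpi replicates 2 and 3 and all libraries of 2, 3 and 5 dpi, while *Xist* exceeded them in 1 dpi replicate 1 and all libraries of 4 and 6 dpi. Therefore 3 against 2 dpi and 6 against 4 dpi compare libraries of 1 pattern each, whereas in 4 against 3 dpi the day and the pattern cannot be told apart. Of the libraries set against 6 dpi, only 1 dpi replicate 1 and those of 4 dpi share its *Xist* pattern. In 6 against 1 dpi and in 3 to 5 dpi against 6 dpi, day and pattern are thus mixed in large part. The patterns also differ in share between 3 to 5 dpi and 1 to 2 dpi.

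Across 1 to 6 dpi, 1 of the 10 genes differed between days, *Psmb10*, at an adjusted p of 0.00184 (edgeR's quasi-likelihood F-test with Benjamini-Hochberg adjustment over 14030 genes, used throughout). In the same test 15.0% of all genes passed. DESeq2 called 4 of the 10, *B2m*, *Tap1*, *Tapbp* and *Psmb10*, beside 26.8% of all genes. The heavy chains were at the other end, with adjusted p-values of 0.97 for *H2-K1* and 0.921 for *H2-D1*. Between them lay *Tap1* (adjusted p = 0.0912), *Tapbp* (0.109), *B2m* (0.18), *Psmb9* (0.264), *Nlrc5* (0.287), *Tap2* (0.627) and *Psmb8* (0.788). The highest day mean was at 6 dpi for *H2-K1*, *B2m*, *Tap2*, *Psmb9* and *Psmb10*. It was at 2 dpi for *H2-D1*, 3 dpi for *Tapbp*, 4 dpi for *Psmb8* and *Nlrc5*, and 5 dpi for *Tap1*. *Psmb10* was lowest at 3 and 5 dpi, and the day means of each heavy chain kept within 0.35 on the log2 scale. The courses of the genes were not tested against each other.

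**Figure D1:**
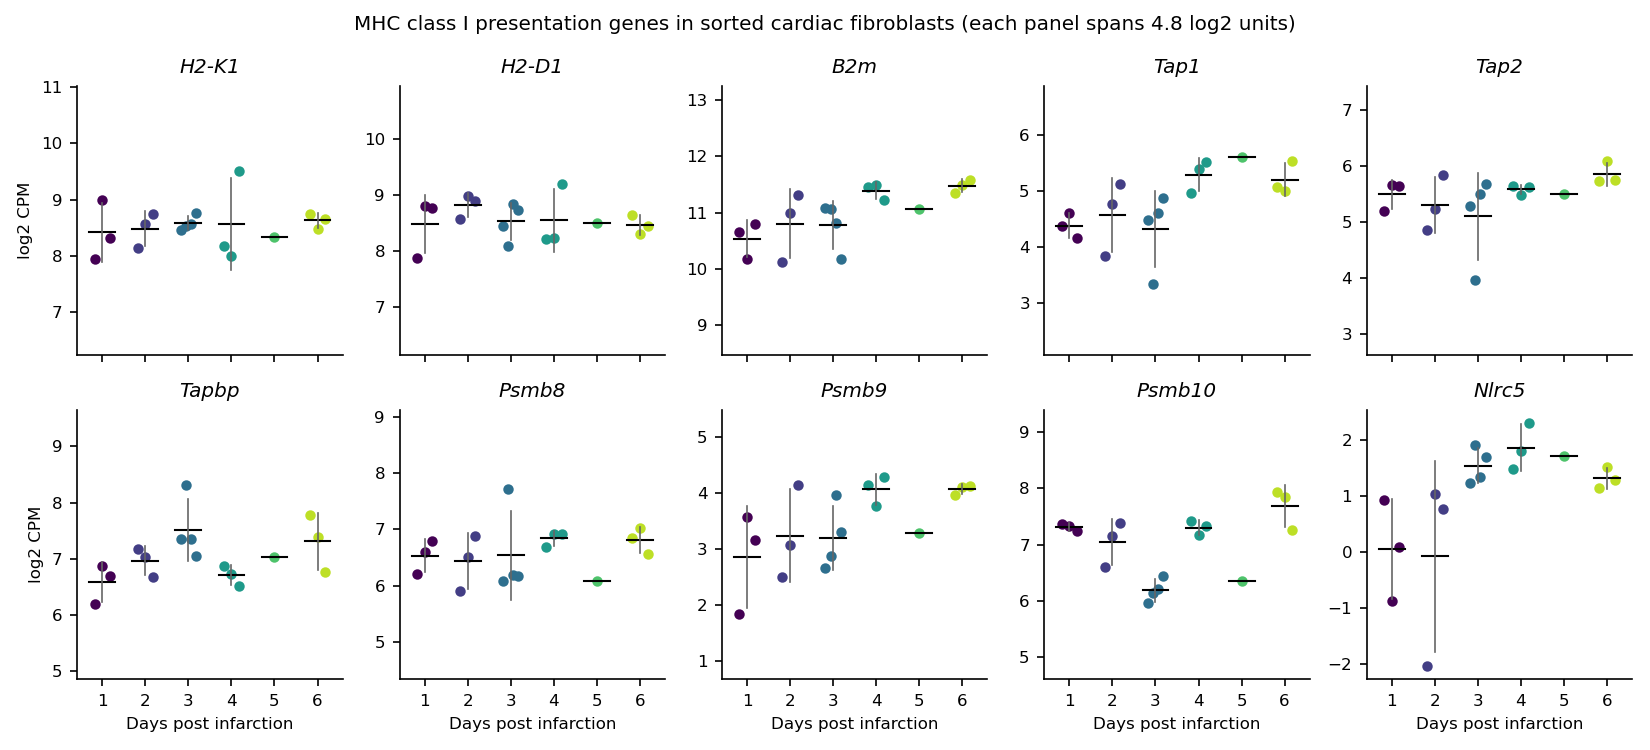
Level of each gene in log2 CPM (vertical axis, 4.8 log2 units in every panel) against the day after infarction. Points are libraries (n = 3, 3, 4, 3, 1 and 3 from 1 to 6 dpi), horizontal bars day means and vertical bars SD. *Psmb10* is lowest at 3 dpi, with a mean of 6.19, and highest at 6 dpi, with 7.68, while the means of *H2-K1* stay between 8.34 and 8.63.

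Several libraries stood apart in these genes. Replicate 2 of 3 dpi had the lowest *Tap1*, *Tap2* and *H2-D1* of its day and the highest *Tapbp*, *Psmb8* and *Nlrc5*. It lay 1.18 above the mean of 3 dpi in *Psmb8* and 1.14 below it in *Tap2* on the log2 scale. Replicate 1 of 2 dpi was the lowest of its day in 9 of the 10 genes, all but *Tapbp*, and replicate 3 of 2 dpi was the highest in 7. At 1 dpi, replicate 1, which had the lowest total count and fibroblast sum of all libraries, was the lowest of its day in 6 genes, and replicate 2 was the highest in 6. At 4 dpi, replicate 3 was the highest in *H2-K1*, *H2-D1*, *Tap1*, *Psmb9* and *Nlrc5*, and its summed level of 5 erythroid markers, 2687 CPM, was the highest of all libraries. Red blood cells were lysed before the sort, and the part of erythroid RNA in these levels was not tested.

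**Figure D2:**
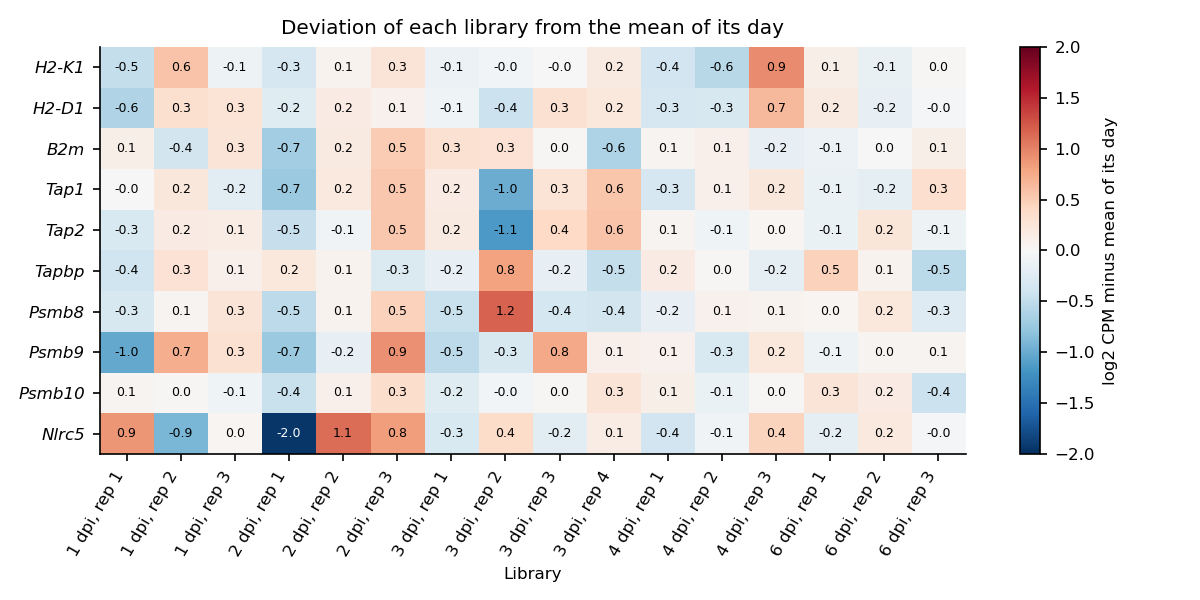
Deviation of each library from the mean of its day (log2 CPM, colour and printed value) for the 10 genes in the 16 libraries of days with replicates. Red is above and blue below the day mean, and 3 dpi replicate 2 ranges from 1.18 above it in *Psmb8* to 1.14 below it in *Tap2*.

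The promoters of the genes are shown because class I genes are known for shared interferon and NF-Y elements upstream of their start sites. The RefSeq table on GRCm38.p6, with 250 bases before and 50 after each start site, held 8 of the 10 genes, and *Tap2* and *Nlrc5* were not matched. Each window was searched on both strands for the interferon regulatory factor core AANNGAAA, found in 23.9% of 32544 promoters, the NF-Y site CCAAT, found in 37.4%, and the NF-kB consensus, found in 8.5%. A match is a description of letters and not evidence of binding. The first lines give both heavy chains, *B2m*, *Psmb9* and *Psmb10*, 5′ to 3′ on the strand of the gene, with matched letters in capitals. The windows lie at chr17:34000298-34000597 on the minus strand, chr17:35262844-35263143 on the plus strand, chr2:122147437-122147736 on the plus strand, chr17:34187281-34187580 on the minus strand and chr8:105938343-105938642 on the minus strand, in that order.
H2-K1: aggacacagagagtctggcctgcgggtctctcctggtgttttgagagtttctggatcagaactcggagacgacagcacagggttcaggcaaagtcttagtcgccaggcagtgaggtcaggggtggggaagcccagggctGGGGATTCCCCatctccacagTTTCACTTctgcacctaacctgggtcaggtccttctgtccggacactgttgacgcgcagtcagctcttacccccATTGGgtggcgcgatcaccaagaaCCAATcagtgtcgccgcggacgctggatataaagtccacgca
H2-D1: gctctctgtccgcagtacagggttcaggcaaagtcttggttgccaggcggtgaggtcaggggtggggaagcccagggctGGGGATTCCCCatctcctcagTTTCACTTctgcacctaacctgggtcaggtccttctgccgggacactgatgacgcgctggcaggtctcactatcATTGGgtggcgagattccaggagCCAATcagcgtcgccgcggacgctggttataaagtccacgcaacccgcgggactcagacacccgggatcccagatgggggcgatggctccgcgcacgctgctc
B2m: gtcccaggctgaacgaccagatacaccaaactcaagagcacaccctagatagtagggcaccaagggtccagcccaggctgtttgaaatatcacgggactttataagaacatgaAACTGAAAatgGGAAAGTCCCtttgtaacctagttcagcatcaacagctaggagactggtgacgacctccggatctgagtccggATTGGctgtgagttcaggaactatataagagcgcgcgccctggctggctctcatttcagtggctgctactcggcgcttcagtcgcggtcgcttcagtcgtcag
Psmb9: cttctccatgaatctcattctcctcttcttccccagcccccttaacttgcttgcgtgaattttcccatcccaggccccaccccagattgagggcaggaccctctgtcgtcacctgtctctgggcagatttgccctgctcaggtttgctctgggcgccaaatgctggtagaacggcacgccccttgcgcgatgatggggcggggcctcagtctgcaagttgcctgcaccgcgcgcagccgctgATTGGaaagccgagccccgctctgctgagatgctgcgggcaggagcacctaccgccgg
Psmb10: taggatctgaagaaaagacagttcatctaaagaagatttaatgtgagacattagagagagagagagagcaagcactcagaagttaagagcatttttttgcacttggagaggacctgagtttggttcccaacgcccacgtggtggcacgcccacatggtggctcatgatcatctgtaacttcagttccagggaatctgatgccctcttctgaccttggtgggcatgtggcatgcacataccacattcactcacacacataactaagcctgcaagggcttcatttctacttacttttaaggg
The windows of *H2-K1* and *H2-D1* each hold 1 interferon regulatory factor core, 2 NF-Y sites and NF-kB consensus matches that overlap in the single run of capitals GGGGATTCCCC, and they share a stretch of 47 identical bases. *B2m* holds 1 match each to the interferon regulatory factor core, the NF-Y site and the NF-kB consensus. *Psmb9* holds an NF-Y match that is also within the *Tap1* window, which overlaps it by 275 bases on the opposite strand. *Psmb10* and *Psmb8* had none of these 3 motifs in their windows. *Tapbp* had 2 NF-Y matches. RefSeq and GENCODE vM21 place some starts differently: the RefSeq start lies 52 bases inside the GENCODE gene for *Psmb10*, 364 for *H2-D1*, 434 for *Psmb9*, 474 for *Psmb8* and 3579 for *Tapbp*.

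The classical heavy chains showed no difference between days. *H2-K1* (ENSMUSG00000061232, chr17:33996017-34000347, minus strand, GRCm38) measured 247, 507 and 320 CPM at 1 dpi, 282, 377 and 430 at 2 dpi, 351, 369, 380 and 432 at 3 dpi, 289, 256 and 728 at 4 dpi, 323 at 5 dpi and 429, 358 and 403 at 6 dpi. The days with replicates all overlapped, the single library of 5 dpi lay below those of 3 and 6 dpi, and both the highest and the second lowest level came from 4 dpi. Between 6 and 1 dpi the log2 difference was 0.15, with a 95% confidence interval from -0.57 to 0.86, so a true difference inside that interval is not excluded. *H2-D1* (ENSMUSG00000073411, chr17:35262730-35267499, plus strand) measured 235, 443 and 432 CPM at 1 dpi, 379, 501 and 476 at 2 dpi, 348, 272, 454 and 425 at 3 dpi, 296, 301 and 586 at 4 dpi, 362 at 5 dpi and 401, 314 and 346 at 6 dpi. Its days with replicates overlapped as well, with the 5 dpi library below those of 2 dpi, and 6 against 1 dpi gave -0.07 (95% interval from -0.71 to 0.58). For *H2-K1* every neighbouring pair in the order of day means, 5, 1, 2, 4, 3 and 6 dpi, lay within the pooled SD of 0.45, and for *H2-D1* the same held with 0.39.

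The heavy chains are near-identical copies in part, so their counts are uncertain. Of the 50-base stretches at the 3′ ends of the *H2-K1* transcripts, 11.8% also occur in other genes, among them *H2-D1*, *H2-Q7* and *H2-Q10*, and for *H2-D1* the share is 18.8%. How the counting treated reads of several genes is not given in the sources used here. Centred on their means over the 17 libraries, *H2-K1* and *H2-D1* were close to each other, with a root mean square difference of 0.256 on the log2 scale, which placed *H2-D1* at rank 6 of 14029 genes around *H2-K1* and *H2-K1* at rank 14 around *H2-D1*. This is a description in which both genes are read from the same libraries, each with its own depth, and have 3′ sequence in common.

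*B2m* (ENSMUSG00000060802, chr2:122147686-122153083, plus strand) encodes beta-2-microglobulin, without which the heavy chains do not reach the surface. Its level was 1607, 1146 and 1779 CPM at 1 dpi, 1109, 2035 and 2531 at 2 dpi, 2163, 2144, 1792 and 1146 at 3 dpi, 2793, 2885 and 2384 at 4 dpi, 2132 at 5 dpi and 2619, 2870 and 3079 at 6 dpi. All 3 libraries of 6 dpi lay above all libraries of 1, 2 and 3 dpi. At 6 against 1 dpi the log2 difference was 0.92 (SE 0.318), with an adjusted p of 0.0644, which misses the threshold.

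Over that comparison, 6 against 1 dpi, 0 of the 10 genes passed, while 12.1% of all genes did. At an unadjusted p under 0.05 there were 4, *B2m*, *Tap1* (log2 difference 0.83), *Tapbp* (0.75) and *Psmb9* (1.03), against 27.6% of all genes, and DESeq2 called 1, *B2m*, at an adjusted p of 0.0131, beside 17.3% of all genes. In 9 of the 10 genes the level was higher at 6 dpi, the exception being *H2-D1*. The median log2 difference of the 10 was 0.57, beside 0.03 over all genes, and the median size without sign was 0.57 beside 0.56. Without 3 dpi replicate 2, 3 genes passed at 6 against 1 dpi, namely *B2m* (adjusted p = 0.0354), *Tap1* (0.0444) and *Tapbp* (0.0418). The share of all genes passing in that fit is not given here, so this count is not set against it.

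The TAP transporter is a heterodimer of the products of *Tap1* and *Tap2*. *Tap1* (ENSMUSG00000037321, chr17:34187553-34197225, plus strand) measured 20.6, 24.1 and 17.8 CPM at 1 dpi, 14.1, 27.1 and 34.6 at 2 dpi, 22.3, 9.98, 24.2 and 29.3 at 3 dpi, 30.9, 41.9 and 45.8 at 4 dpi, 48.3 at 5 dpi and 33.5, 31.8 and 46.1 at 6 dpi. The libraries of 4 to 6 dpi were above all those of 1 and 3 dpi, and 2 dpi replicate 3 reached into their range. The 4 against 3 dpi difference was 0.89 (SE 0.322, adjusted p = 0.147). *Tap2* (ENSMUSG00000024339, chr17:34203527-34216321, plus strand) had day means from 37.6 CPM at 3 dpi to 58.2 at 6 dpi, and its lowest library, 3 dpi replicate 2, measured 15.5 CPM against 45.0 and 50.9 in replicates 3 and 4 of that day. None of its comparisons reached an unadjusted p under 0.05, and its 3 libraries of 6 dpi lay above all those of 1, 3, 4 and 5 dpi but overlapped 2 dpi. Each of the pair was the other's nearest gene among the 10, with a root mean square difference of 0.397 (rank 27 of 14029 around *Tap1*, rank 315 around *Tap2*).

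*Tapbp* (ENSMUSG00000024308, chr17:33915899-33929292, plus strand) encodes tapasin, which joins class I molecules to TAP and edits their peptides. It measured 73.1, 117 and 103 CPM at 1 dpi, 144, 131 and 102 at 2 dpi, 163, 318, 164 and 132 at 3 dpi, 116, 106 and 91.6 at 4 dpi, 131 at 5 dpi and 218, 167 and 109 at 6 dpi. The 4 libraries of 3 dpi were above the 3 of 4 dpi, with a log2 difference of -0.89 for 4 against 3 dpi (SE 0.303, adjusted p = 0.123). It was the member with the reverse direction to *Tap1* at that step. Both genes have neighbours on the other strand: *Tap1* and *Psmb9* share 212 exon bases at their 5′ ends, and 1053 exon bases of *Tapbp* overlap *Gm19412* on the other strand or *Zbtb22*. The same holds for 698 exon bases of *Tap2* (*Gm15821* and *Gm20496*), 498 of *Psmb8* (*Gm20496*) and 78 of *Nlrc5* (*9330175E14Rik*), all on the other strand. Whether counting used the strand is not given in the sources used here, and without it reads of such neighbours cannot be told apart.

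*Psmb10* (ENSMUSG00000031897, chr8:105935735-105938444, minus strand) encodes beta2i, the trypsin-like subunit of the immunoproteasome that replaces the product of *Psmb7*. It measured 165, 162 and 150 CPM at 1 dpi, 96.4, 141 and 168 at 2 dpi, 61.8, 70.4, 74.1 and 86.9 at 3 dpi, 172, 143 and 160 at 4 dpi, 81.2 at 5 dpi and 246, 231 and 153 at 6 dpi. All libraries of 3 and 5 dpi lay below all libraries of the other days, of which 2 dpi replicate 1 came nearest. The mean fell from 135 ± 36.0 CPM at 2 dpi (SD, n = 3) to 73.3 ± 10.4 at 3 dpi (n = 4) and rose to 158 ± 14.3 at 4 dpi (n = 3), and it was 210 ± 49.6 at 6 dpi (n = 3). In the order of its day means, 3, 5, 2, 4, 1 and 6 dpi, 2 steps exceeded the pooled SD of 0.27, those from 5 to 2 dpi and from 1 to 6 dpi. That SD was at the 10.5th percentile of all genes tested.

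Between adjacent days *Psmb10* fell from 2 to 3 dpi by 0.88 on the log2 scale (SE 0.229, adjusted p = 0.0429), and it was the only one of the 10 genes to pass, beside 2.94% of all genes. That call stands near the threshold: it was lost in 9 of 16 fits without 1 library, namely 1 dpi replicates 2 and 3, 2 dpi replicates 2 and 3, 3 dpi replicates 1, 3 and 4, and 4 dpi replicates 1 and 2 (adjusted p from 0.0526 to 0.203). It was also lost in a fit to those days alone (adjusted p = 0.0975) and with a term for the replicate number (adjusted p = 0.0831). DESeq2 called *Psmb10* alone at this step, beside 7.58% of all genes. From 3 to 4 dpi it rose by 1.11 (SE 0.23, adjusted p = 0.0124), again alone among the 10, beside 2.71% of all genes. Without 4 dpi replicate 1 the rise was 1.05 at an adjusted p of 0.0631, and in a fit to those days alone it was 1.11 at 0.0516. DESeq2 called 2 of the 10 there, *Psmb10* and *Tapbp*, beside 6.39% of all genes. No gene of the 10 passed at 2 against 1 dpi, where 0.178% of all genes did, or at 6 against 4 dpi, where 0.513% did, and at both steps edgeR's count at an unadjusted p under 0.05 and DESeq2's count were 0. Of all genes 7.58% and 19.9% had such a p at these steps, and DESeq2 called 0.741% and 6.51%.

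The window from 3 to 5 dpi, which the study defined from marker genes in data that include these libraries as the passage of CFs to a reparative state, is not independent of them, and the mean of its days was compared with the days before and after it. *Psmb10* was lower in the window than at 6 dpi, by a log2 difference of -1.10 (SE 0.212, adjusted p = 0.00388), and was the only one of the 10 to pass, beside 11.5% of all genes, as it was with DESeq2, beside 19.3%. It stayed called in all 16 fits without 1 library of a replicated day, with adjusted p-values up to 0.0363. Without the 3 dpi libraries it was -0.90 (adjusted p = 0.0401), where 4 dpi and the single 5 dpi library weigh equally. Without the 5 dpi library it was -0.96 (adjusted p = 0.00468). Inside the window, 4 dpi had a mean of 158 CPM, against 159 at 1 dpi, and 6 against 4 dpi gave 0.41 (adjusted p = 0.366). That day is also the only one of the window with the *Xist* pattern of 6 dpi. Against 1 and 2 dpi, 0 of the 10 passed, beside 7.48% of all genes. At an unadjusted p under 0.05 there were 3 in that comparison, beside 21.6% of all genes, *Nlrc5* (1.54, adjusted p = 0.0815), *Psmb10* (-0.58, adjusted p = 0.054) and *Tap1* (0.59, adjusted p = 0.168), and DESeq2 called 2, *Psmb10* and *Nlrc5*, beside 11.1% of all genes. In the libraries of the Y-linked pattern alone, which leave out 4 dpi and 1 dpi replicate 1, the log2 difference of *Psmb10* at 3 and 5 dpi from 1 and 2 dpi was -0.91 (adjusted p = 0.0396). The pattern and the days differ together from the full window in that value.

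Other measures moved with *Psmb10*. Libraries of 3 and 5 dpi, where it was low, had leukocyte sums of 43.1 to 311 CPM, of which the lowest lies under the 48.3 of 4 dpi replicate 2. Their cardiomyocyte sums were 8.57 to 13.7 CPM, against 10.7 to 36.9 at 1 and 2 dpi, 35.2 to 62.9 at 4 dpi and 70.6 to 148 at 6 dpi. Their erythroid sums were 2.13 to 30.2 CPM, against 19.5 to 182 at 1 and 2 dpi and 55.8 to 2687 at 4 and 6 dpi. Total counts were 8465454 to 14123952 in these libraries and 8336263 in 4 dpi replicate 3, which measured 160 CPM. Y-linked counts exceeded *Xist* in all libraries of 3 and 5 dpi and in none of 4 and 6 dpi. They also did so at 2 dpi and in 1 dpi replicates 2 and 3, where *Psmb10* was higher. The part of cell composition, of depth and of the sex-linked pattern in the course of *Psmb10* was not tested. Fewer cells of a type cannot be told apart from less RNA per cell in these bulk samples. The libraries of 3 dpi carry names of another scheme than the rest, including 5 dpi, and the part of what that scheme marks was not tested.

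**Figure D3:**
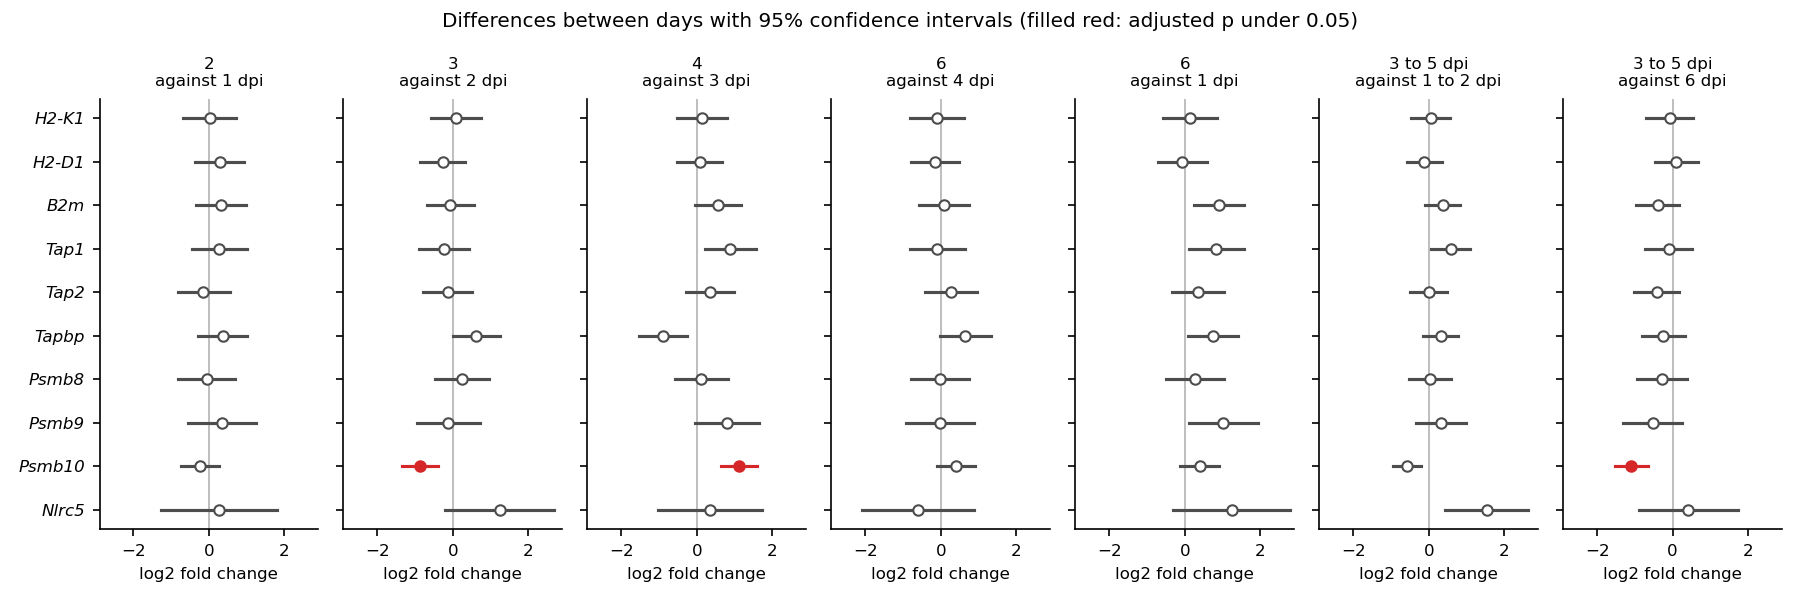
Log2 fold change (horizontal axis) with its 95% confidence interval for the 10 genes in 7 comparisons between days. Filled red points passed an adjusted p of 0.05, and all 3 are *Psmb10*: -0.88 at 3 against 2 dpi, 1.11 at 4 against 3 dpi and -1.10 for 3 to 5 dpi against 6 dpi.

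*Psmb8* (ENSMUSG00000024338, chr17:34197721-34201454, plus strand) encodes beta5i, the chymotrypsin-like immunoproteasome subunit. It measured 73.9, 96.2 and 111 CPM at 1 dpi, 59.9, 91.1 and 119 at 2 dpi, 67.7, 210, 72.5 and 71.7 at 3 dpi, 103, 121 and 121 at 4 dpi, 67.5 at 5 dpi and 116, 130 and 93.8 at 6 dpi. With the exception of 3 dpi replicate 2, the libraries of 3 and 5 dpi were below those of 4 and 6 dpi, and no comparison reached an unadjusted p under 0.05. *Psmb9* (ENSMUSG00000096727, chr17:34181987-34187764, minus strand) encodes beta1i and had low counts, 27 to 304. Its level was 3.42, 11.8 and 8.80 CPM at 1 dpi, 5.52, 8.24 and 17.6 at 2 dpi, 6.21, 7.17, 15.4 and 9.68 at 3 dpi, 17.5, 13.4 and 19.2 at 4 dpi, 9.58 at 5 dpi and 15.4, 17.1 and 17.3 at 6 dpi. The libraries of 6 dpi were close together and above those of 1 dpi, and the log2 difference was 1.03 (SE 0.437, adjusted p = 0.131).

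Each immunoproteasome subunit was set against the constitutive subunit it replaces, as the log2 difference within a library, so that a change over the days is a change of one relative to the other. The size of a difference also depends on the 3′ ends captured and is not read. For *Psmb10* minus *Psmb7* the values at 6 dpi were 2.24, 2.43 and 0.94, a mean of 1.87 ± 0.81 (SD, n = 3), against 0.33 to 1.03 over the 6 libraries of 1 and 2 dpi, 0.74 ± 0.23. The difference of 1.13 had a two-sided exact permutation p of 0.0238 over 84 splits, and 0.133 after Benjamini-Hochberg adjustment over 6 tests. The groups overlapped, since the 0.94 of 6 dpi lay below the highest early value, 1.03. In the window, *Psmb10* minus *Psmb7* was 0.58 ± 0.75 (n = 8), a difference of -0.15 from 1 and 2 dpi with an exact permutation p of 0.641. Its libraries were spread from -0.56 to 1.70, on both sides of the early ones.

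*Psmb8* minus *Psmb5* was 0.59 higher in the window and 0.70 higher at 6 dpi than at 1 and 2 dpi (exact permutation p of 0.0889 and 0.0714, both 0.133 adjusted). *Psmb9* minus *Psmb6* was 0.78 and 0.94 higher (exact permutation p of 0.0753 and 0.119, adjusted 0.133 and 0.143). Without 1 dpi replicate 1 these *Psmb9* differences were 0.44 and 0.60, and without 3 dpi replicate 2 that of *Psmb8* in the window was 0.33. None of the 6 tests passed, and in 5 of them the difference was positive. *Psmb5*, *Psmb6* and *Psmb7* themselves had log2 differences of 0.64, 0.64 and 0.68 at 4 against 3 dpi, none called, with adjusted p-values of 0.128, 0.161 and 0.344. At 3 against 2 dpi theirs were -0.68, -0.31 and -0.39, none called, with adjusted p-values of 0.0947, 0.538 and 0.638.

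**Figure D4:**
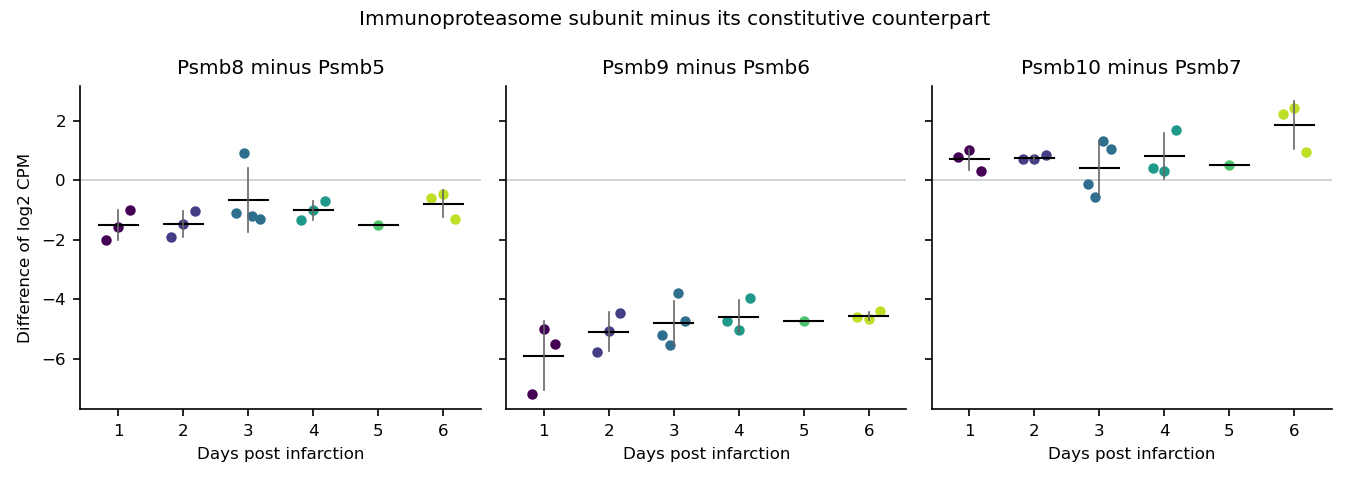
Log2 CPM of each immunoproteasome subunit minus that of its constitutive counterpart (vertical axis) by day after infarction. Points are libraries, horizontal bars day means and vertical bars SD, and *Psmb10* minus *Psmb7* reaches 2.24 and 2.43 in 2 of the 3 libraries of 6 dpi.

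*Nlrc5* (ENSMUSG00000074151, chr8:94434356-94527272, plus strand) was measured at the edge of the depth, with 2 to 58 counts per library. The counts were 14, 10 and 19 at 1 dpi, 2, 36 and 27 at 2 dpi, 25, 45, 32 and 29 at 3 dpi, 41, 58 and 45 at 4 dpi, 30 at 5 dpi and 32, 32 and 30 at 6 dpi. In CPM the libraries of 3 to 6 dpi, 2.07 to 4.81, lay above those of 1 and 2 dpi, 0.107 to 1.91, without overlap, and 2 dpi replicate 1 was under the floor of 3 counts. The log2 difference of the window from 1 and 2 dpi, 1.54, had a standard error of 0.522. Its fitted value depends on the few early counts.

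The patterns most like each gene's over the 17 libraries were sought among all 14029 others, as the smallest root mean square difference of centred log2 levels. *Psmb10* was nearest to *Fis1* (0.178), *Eef1d* (0.201) and *Mrps24* (0.216), and its nearest member, *Tap2*, came at rank 783 (0.492). *B2m* was nearest to *Irgm2* (0.238), an interferon-inducible GTPase, before *Hsbp1* (0.263) and *Qsox1* (0.269). The heavy chains shared *Tnfsf12* among their nearest 3, at 0.24 for *H2-K1* and 0.19 for *H2-D1*, with *Tead3* and *Ldb1* (both 0.235) beside *H2-K1* and *Arl6* (0.21) and *Slc45a4* (0.222) beside *H2-D1*. *Tap1* had *Pcbd2*, *Arhgef10l* and *Ddr1* (0.268 to 0.326), *Tap2* had *Ncoa5*, *Uck1* and *Cbx6* (0.221 to 0.241) and *Tapbp* had *Xpnpep1*, *Kirrel* and *Serping1* (0.23 to 0.235). *Psmb8* had *Oaf*, *Eng* and *Sec31a* (0.217 to 0.241), *Psmb9* had *Klhdc1* (0.316) and *Tspan7* (0.4) and *Nlrc5* had *9330020H09Rik*, *Tmem132a* and *Ecscr* (0.567 to 0.658). Apart from the heavy chains, no member had another within its nearest 20 genes.

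The other genes of the pathway were read from 10 lists of 103 genes, of which 100 are in the table. No gene of any list passed at 2 against 1 dpi or 3 against 2 dpi, beside 0.178% and 2.94% of all genes. The median log2 difference of the window from 1 and 2 dpi was 0.05 over 20 regulators and 0.43 over 12 interferon gamma targets, beside 0.00 over all genes. The largest medians there were 1.81 over 6 class II genes and 1.73 over 3 NKG2D ligands, and the remaining lists lay from -0.35 to 0.15. From 1 to 6 dpi the median was -0.45 over the 3 constitutive catalytic subunits, -0.44 over 11 other 20S core subunits and 2.15 over the class II genes, beside 0.03. Among regulators of class I transcription 4 of 20 differed across 1 to 6 dpi, near the 15.0% of all genes, among them *Nfkb1*, *Irf7* and *Stat2*. *Stat2*, a factor that carries the signal of type I interferons, had day means of 5.02, 4.71, 4.56, 5.33, 5.23 and 5.67 log2 CPM from 1 to 6 dpi (adjusted p = 0.0336), a call kept in 7 of 16 fits. *Nfkb1*, a subunit of NF-kB, had its highest mean at 3 dpi, 6.81, and fell by 1.02 from 3 to 4 dpi (SE 0.205, adjusted p = 0.0106), the opposite direction to *Psmb10*. Without 4 dpi replicate 1 or 2 that step was not called, whereas across 1 to 6 dpi *Nfkb1* stayed called in all 16 fits. *Irf7* was called across 1 to 6 dpi in 11 of 16 fits. *Irf7* rose by 1.34 and *Irf8* by 1.15 from 1 to 6 dpi (adjusted p = 0.0164 and 0.038). Both were lost without 1 dpi replicates 1 or 3 or 6 dpi replicates 1 or 2, *Irf7* also without 1 dpi replicate 2 and *Irf8* also without 3 dpi replicate 4.

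Among interferon gamma targets 2 of 12 tested differed, a share near that of all genes, and these were the chemokine genes *Cxcl9* and *Cxcl10*, whose products draw T cells. Across 1 to 6 dpi *Cxcl9* was called in 14 of 16 fits, not without 1 dpi replicates 1 or 3, and *Cxcl10* in all 16. The filter of at least 10 counts in every library also removed that call of *Cxcl9*. *Cxcl9* had 0 to 21 counts at 1 and 2 dpi and 9 to 127 later, and its log2 difference between the window and 1 and 2 dpi was 3.54 (SE 0.703, adjusted p = 0.00299), called without any one library. *Cxcl10* was higher in the window than at 1 and 2 dpi by 1.17 (adjusted p = 0.0152) and higher than at 6 dpi by 1.29 (adjusted p = 0.0314). The first call was lost without 1 dpi replicate 3 and in the Y-linked pattern alone, and the second without 4 dpi replicates 1 or 2 or 6 dpi replicates 1 or 2. From 3 to 4 dpi, *Gbp7* rose by 1.04 (adjusted p = 0.0428), a call kept in 8 of 16 fits. Among 10 interferon receptors and kinases 2 differed, *Ifngr2* and *Socs1*, beside 15.0% of all genes. *Ifngr2*, a chain of the interferon gamma receptor, fell by 1.14 from 1 to 6 dpi (SE 0.257, adjusted p = 0.00721) and was higher in the window than at 6 dpi by 1.15 (adjusted p = 0.00513), both called in all 16 fits. *Socs1*, an inhibitor of the same signal, was lower in the window than at 6 dpi by a log2 difference of -1.03 (adjusted p = 0.0157), lost without 6 dpi replicate 1.

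Of 12 other class I heavy chains and class I-like genes tested, 1 passed, beside 15.0% of all genes. This was *Fcgrt*, the Fc receptor of the newborn that pairs with beta-2-microglobulin, which differed across 1 to 6 dpi and rose by 1.54 from 1 to 6 dpi (SE 0.383, adjusted p = 0.0135), a call lost without 1 dpi replicate 1 or 6 dpi replicates 1 or 2. The non-classical *H2-Q7* was higher in the window than at 1 and 2 dpi by 0.81 (SE 0.236, adjusted p = 0.0404), kept in 8 of 16 fits and lost in a fit to those days alone, in the window without 3 dpi and in the Y-linked pattern alone. Of the 12 chaperones and trimming enzymes 1 differed across the days, again beside 15.0%. *Lnpep*, a peptide-trimming aminopeptidase, fell from 1 to 6 dpi (95% interval of the log2 difference from -1.89 to -0.51, adjusted p = 0.0237), lost without 1 dpi replicates 1 or 2 or 6 dpi replicates 1 or 2. Across 1 to 6 dpi none of the 3 constitutive catalytic subunits, 11 other 20S core subunits or 5 proteasome activators and assembly factors passed, beside the same 15.0%. In single comparisons *Psma1* fell by 1.19 from 1 to 6 dpi (adjusted p = 0.0353) and *Psma6* was higher in the window than at 6 dpi by 0.89 (adjusted p = 0.0364), each called in 11 of 16 fits. Of 3 NKG2D ligands tested, 2 passed in the window against 1 and 2 dpi, *Raet1e* and *Raet1d*, beside 7.48% of all genes. They were higher by 1.74 and 2.77 (adjusted p = 0.0262 and 0.0279), from 10 to 65 and 0 to 11 counts early. Each was called in 11 of 16 fits, and neither in the window without 3 dpi nor in the Y-linked pattern alone.

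Class II genes are the counterpart that professional antigen-presenting cells use. *H2-Eb1* differed across 1 to 6 dpi (adjusted p = 0.0019), 1 of 6 class II genes tested, beside 15.0% of all genes. It had day means of 0.99, 1.27, 2.52, 1.39, 3.39 and 3.84 log2 CPM from 1 to 6 dpi and rose by 2.69 from 1 to 6 dpi (SE 0.532, adjusted p = 0.00295), called in all 16 fits. It was also higher at 6 than at 4 dpi by 2.46 (adjusted p = 0.0441), called in 5 of 16 fits. *H2-Eb1* had 15 to 208 counts per library. The leukocyte sum was 43.1 to 311 CPM at 3 dpi and 99.7 at 5 dpi, days with a higher *H2-Eb1* mean than 1, 2 and 4 dpi. At 6 dpi, where *H2-Eb1* was highest, the sum was 26.7 to 34.5 CPM, within the 25.9 to 48.3 of 4 dpi. In the window against 1 and 2 dpi, 2 of the 6 passed, *H2-Eb1* (kept in 8 of 16 fits) and *H2-DMb1*, beside 7.48% of all genes. *H2-DMb1* was higher there by 4.21 (adjusted p = 0.0208) from 0 to 3 early counts, and the fitted value is no bound. That call of *H2-DMb1* was lost without 1 dpi replicate 2 or 2 dpi replicate 3 and in the Y-linked pattern alone. The part of leukocytes in the class II levels was not tested.

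**Figure D5:**
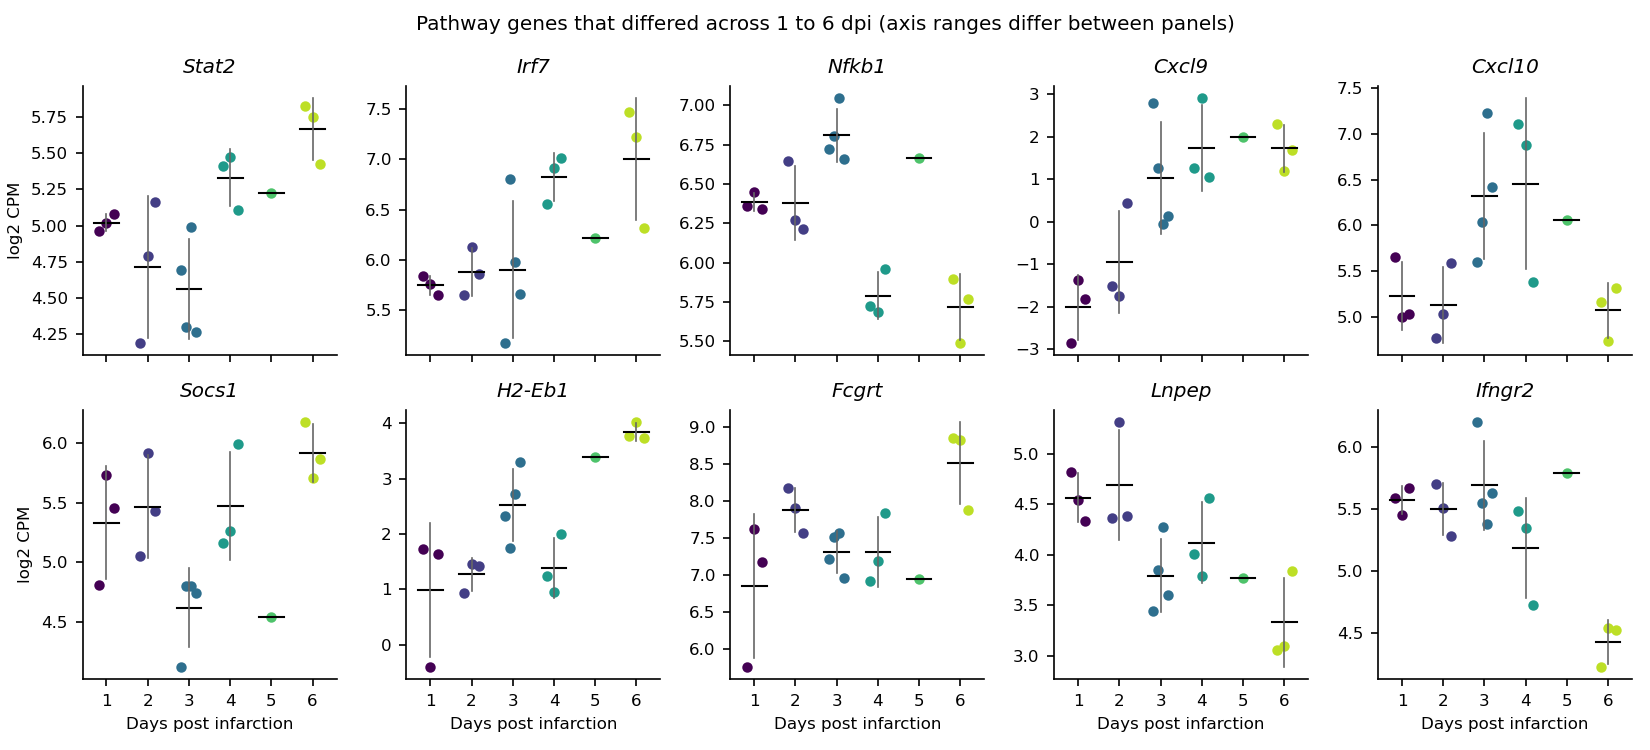
Levels in log2 CPM (vertical axes differ between panels) of 10 genes from the pathway lists that differed across 1 to 6 dpi, by day after infarction, with points for libraries, horizontal bars for day means and vertical bars for SD. *Nfkb1* is highest at 3 dpi (6.81) and *H2-Eb1* at 6 dpi (3.84).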

How the data were processed

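Bulk RNA-seq by MARS-seq of sorted CFs was analysed for 17 libraries from 1 to 6 dpi. The authors used bcl2fastq (1.2.4) for demultiplexing, STAR on mm10 for alignment and featureCounts with an Ensembl annotation for counting. The deposited values are counts of reads per gene, not normalized, and no collapsing of duplicates or molecular identifiers is named. Several samples were amplified together, and the membership of these pools is not given in the sources used here. The test was the quasi-likelihood F-test of edgeR (4.0.16) in R (4.3.3), with TMM scaling, 1 term per day and all libraries in 1 fit, without a replicate term, and with Benjamini-Hochberg adjustment at 0.05 over 14030 genes. The window is the mean of 3, 4 and 5 dpi, and the 5 dpi library was not tested alone. Its title gives replicate 3 and its description 1, and the title was used. Levels of genes are CPM of TMM-normalized libraries, on the log2 scale with a prior count of 2. The floor of detection and the marker sums are CPM of total counts without the TMM factors, which ran from 0.838 to 1.124. Gene positions (GRCm38) come from GENCODE vM21, whose release differs from that used for counting. The fit was tested on simulated data, but the outcome is not reported here and no statement above rests on it. The range of depth lets counting error stay small except for *Nlrc5* and other genes with few counts. In 18 pairs of replicates the chi-square per degree of freedom was 23.0 to 230, so that no pair agreed within counting error. Read counts with PCR copies exceed that error in any case, and libraries were taken as separate samples from their labels. Alternatives were DESeq2 (1.42.0), its size factors in edgeR, looser and stricter filters, a robust spread, the replicate block, a fit to the days compared, windows without 3 or 5 dpi, libraries of the Y-linked pattern alone, other scales of level, and each library of a replicated day left out. The members and gene lists were chosen with earlier results of these data known. Named list genes are up to 4 per list with the lowest adjusted p across the days, besides those passing in a single comparison, which were chosen after their values were seen. Figures were drawn with matplotlib (3.10.9) under Python (3.11.15). A few genes and 1 motif of these lists are not reported here.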

Additional observations from a re-analysis of the deposited data

Results flagged for a closer look

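Within 3 dpi, the only day with 4 libraries, replicate 2 stood far from the others in *Psmb8*, with a level of 7.72 log2 CPM against 6.08 to 6.18 in the other 3. The gap is 0.94 of the day's range, which exceeds the 95% limit of Dixon's test. Of the 10 genes this was the single one past that limit, and chance alone would put 0.5 past it. The same library was the lowest of its day in *Tap1*, 3.34 against 4.48 to 4.88, and the highest in *Tapbp*, 8.31 against 7.04 to 7.35, without passing that test.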

How the results depend on the processing

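For the number of the 10 genes called, 156 results under the alternatives kept the count within 1.5 times and 32 did not. Across 1 to 6 dpi it was 1, against 4 with DESeq2 (*B2m*, *Tap1*, *Tapbp* and *Psmb10*, beside 26.8% of all genes). It was 3 with every gene of at least 1 count (18.1% of all genes). With 1 library left out it was 1 to 2, the second being *Tap1* without 3 dpi replicate 2 (adjusted p = 0.0399). At 3 against 2 dpi it was 1, against 0 with the replicate block (1.24% of all genes). It was 0 in a fit to those days alone (*Psmb10* adjusted p = 0.0975, beside 1.95% of all genes) and 0 to 1 with 1 library left out. At 4 against 3 dpi it was 1, against 2 with DESeq2 (6.39% of all genes) and 2 with every gene of at least 1 count (4.21%), the second being *Tapbp*. It was 0 in a fit to those days alone (*Psmb10* adjusted p = 0.0516, beside 0.976% of all genes) and 0 to 1 with 1 library left out. At 6 against 1 dpi it was 0, against 1 with DESeq2 (17.3% of all genes) and 1 in a fit to those days alone (11.9%). With 1 library left out it was 0 to 3. *B2m* also passed there without 2 dpi replicate 1 (adjusted p = 0.0489) and *Tapbp* without 6 dpi replicate 3 (0.0453). For 3 to 5 dpi against 1 to 2 dpi it was 0, against 2 with DESeq2 (11.1% of all genes). It was 1 in a fit to those days alone (*Psmb10*, beside 7.76% of all genes). In the window without 3 dpi it was 1 (*Tap1*, log2 difference 0.90, adjusted p = 0.0344, beside 5.92% of all genes). The Y-linked pattern alone, which has no 4 dpi library, gave 1 (*Psmb10*, beside 6.02% of all genes). With 1 library left out it was 0 to 2. The second was *Tap1* without 3 dpi replicate 2 (adjusted p = 0.037), and *Psmb10* passed without 2 dpi replicate 1, 3 dpi replicates 2 or 4, 4 dpi replicate 3 or 6 dpi replicate 3 (adjusted p from 0.0242 to 0.0489). The count for 3 to 5 dpi against 6 dpi was 1 under every alternative run. With 1 library left out, *Psmb10* minus *Psmb7* in the window differed from 1 and 2 dpi by -0.31 to 0.01. The shares of all genes called with 1 library left out are not given here. The cause of these shifts was not tested. No called difference changed sign.

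The replicate numbers do not pair the libraries: deviations from the day means correlated at -0.01 on average over 30 pairs of the same number and at -0.001 over 72 pairs of different numbers. The replicate block, which removed the call of *Psmb10* at 3 against 2 dpi (log2 difference -0.97, adjusted p = 0.0831), changed no other call of the 10 genes. Of the pathway genes it removed the calls of *Fcgrt*, *Stat2* and *Lnpep* across 1 to 6 dpi, *Gbp7* at 4 against 3 dpi, *Raet1e*, *Raet1d*, *H2-DMb1* and *H2-Eb1* in the window against 1 and 2 dpi, and *Cxcl10* in the window against 6 dpi. Depth limits *Nlrc5* and *Psmb9*, and the single library of 5 dpi carries no error of its own.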
